A study of Drosophila melanogaster with 2 samples.

Results

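The peaks described here are the autosomal peaks from immunoprecipitation of the Worniu fusion protein that lay inside introns and away from transcript starts. Direct binding of the protein at them was not tested. A peak was taken if its summit was on arm 2L, 2R, 3L, 3R or 4, over 500 bp from every annotated transcript start, inside a gene body and in no annotated exon, and if it overlapped no peak of higher signal. These conditions were met by 800 peaks of the 3045 peaks that the conservative list placed on the chromosome arms. They were 36.4% of the 2200 autosomal peaks that overlapped no stronger peak (95% Wilson interval 34.4 to 38.4%). The choice used position, and signal only to settle overlaps: of 893 autosomal peaks at such positions, 93 overlapped a stronger peak.

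The data came from chromatin immunoprecipitation and sequencing with a GFP antibody on Drosophila melanogaster embryos, taken whole at 0 to 18 h. All embryos were of the strain wor-GFP, in which an insertion targets wor, and expressed wor-eGFP fusion protein. The 2 biological replicates formed 1 group with no second condition, so no test across conditions was possible. No source used here gives the promoter that drives the fusion, chromatin of every embryonic tissue was mixed, and no control immunoprecipitation is analysed here. The depth of the libraries is unknown, since the files hold no read numbers, and all intervals below cover counting error only.

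Worniu belongs to the Snail family of zinc finger transcription factors and is known for its role in neuroblasts, the stem cells of the fly nervous system. Proteins of this family bind E-box sequences of the form CAGGTG and act mostly as repressors. In flies many enhancers lie within introns, often within the long introns near the 5′ end of developmental genes, and an enhancer can act on its host gene or on a neighbour.

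The 4 sequences that follow reach 50 bp to either side of the summits of the intronic peaks that ranked 1, 4, 7 and 8 by signal, on the plus strand of dm6 with bases from RefSeq Release 6. Capitals mark the longest unbroken run of A and T, the first where runs tie.
CG11050, chr2L:6612656-6612756: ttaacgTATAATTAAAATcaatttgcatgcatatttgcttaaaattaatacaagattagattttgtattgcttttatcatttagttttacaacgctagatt
Trl, chr3L:14759469-14759569: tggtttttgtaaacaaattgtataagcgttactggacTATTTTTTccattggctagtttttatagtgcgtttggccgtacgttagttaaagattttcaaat
CG4496, chr2L:7188568-7188668: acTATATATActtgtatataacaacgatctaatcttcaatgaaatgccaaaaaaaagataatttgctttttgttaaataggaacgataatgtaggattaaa
CG32486, chr3L:3060743-3060843: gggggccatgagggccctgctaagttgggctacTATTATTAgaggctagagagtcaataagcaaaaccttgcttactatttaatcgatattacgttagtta
The G+C content of these windows was 21.8% in CG11050, 31.7% in Trl, 23.8% in CG4496 and 41.6% in CG32486.

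The Snail-type hexamer was present within 50 bp of the summit in few of the intronic peaks. The summit windows of 3 strong peaks with it are printed with the hexamer in capitals, read as CAGGTG or as its complement CACCTG.
cue, chr3L:1516199-1516299: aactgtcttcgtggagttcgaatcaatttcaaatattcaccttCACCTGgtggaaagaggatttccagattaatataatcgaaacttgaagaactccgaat
ftz-f1, chr3L:18769501-18769601: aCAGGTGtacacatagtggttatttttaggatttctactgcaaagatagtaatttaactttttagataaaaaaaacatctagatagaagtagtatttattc
ush, chr2L:522047-522147: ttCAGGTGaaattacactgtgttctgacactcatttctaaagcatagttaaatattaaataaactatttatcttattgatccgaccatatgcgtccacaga
The peaks in cue, ftz-f1 and ush had signals of 185.5, 173.8 and 168.2, and ranked 160, 180 and 186 among the 800 intronic peaks. In ush the window reaches past the peak, chr2L:522082-522179, and the marked hexamer lies outside it.

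The hexamer with the smallest p at the summits of the intronic peaks was TTAAAA, with the complement TTTTAA. It is shown in capitals in the summit windows of 2 further strong peaks, and it also stands in the CG11050 window above.
Reph, chr2L:3804693-3804793: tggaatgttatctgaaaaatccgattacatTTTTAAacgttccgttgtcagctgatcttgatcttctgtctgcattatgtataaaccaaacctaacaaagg
simj, chr3L:10682923-10683023: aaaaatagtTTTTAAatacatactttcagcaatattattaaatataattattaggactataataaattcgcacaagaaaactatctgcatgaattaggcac
Reph and simj had signals of 596.8 and 485.1. In simj the window reaches past the peak, chr3L:10682958-10683121, and the marked hexamer lies outside it.

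The strongest intronic peak lay in CG11050 and was also the strongest of the whole list. Its signal, the authors' value per peak and not scaled between lists, was 1620 in the conservative list, 846 in the ranked list of replicate 1 and 776 in that of replicate 2. It was placed at chr2L:6612535-6612881, in an intron of only 140 bp, the second from the 5′ end. HmgZ, which encodes a high mobility group box protein, held the next peak, with signals of 749 and 659 in replicates 1 and 2, and the summit also lay within its neighbour HmgD. The peak of Adf1, a transcription factor with a Myb-like DNA-binding domain, had 632 in replicate 1 and 431 in replicate 2. The peak of Trl, which encodes GAGA factor, had 499.7 in replicate 1 and 473 in replicate 2. A peak of signal 945 in the conservative list lay within CG46321, CG12912 and the nuclear receptor gene Hr3, and was given to CG46321 because its intron there was the shortest. Its replicate signals were 509.6 and 437. These 5 peaks were high in both replicates, which their choice by signal in a list made from both replicates favours.

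The next 10 peaks by signal lay in CG12769, CG4496, CG32486, KCNQ, lncRNA:CR44810, Reph, Gug, chif, CG9663 and mub, with signals of 783 in CG12769 to 495 in mub. KCNQ encodes a potassium channel, Gug the corepressor Atrophin, chif a relative of the replication kinase subunit Dbf4, and mub a KH-domain RNA-binding protein. All 15 of the strongest intronic peaks were present in the thresholded lists of both replicates, which their choice by signal favours. First introns held 10 of them and second introns 5, and 8 lay within 1000 bp of a start. The G+C content of the 15 summit windows ran from 18.8 to 48.5%, with a median of 28.7%, and 13 were lower than both flanks. CAGGTG was found in 0 of the 15 windows.

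At the other end of the ranking stood inv, Dgk, CG42390, Inos and cact, with signals of 57.7, 57.7, 56.6, 54.3 and 37.2. The gene inv encodes a homeodomain protein, a paralog of Engrailed, and cact the IkB-type inhibitor of the Dorsal pathway. All 5 were absent from both replicates' thresholded lists.

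The median signal of the intronic peaks was 111 (95% interval of the median 106.4 to 115.4), against 146.5 for the 956 autosomal peaks within 500 bp of a start (138 to 154). Autosomal intergenic peaks away from starts, 392 in number, had a median of 107.5 (102 to 112), and the 296 intronic peaks of the X a median of 119 (109.96 to 129). The interval of the intronic peaks overlapped those of the intergenic and X intronic peaks, and not that of the peaks near starts. Among the 100 strongest peaks of the list, 14 were autosomal intronic peaks and 64 were autosomal peaks near starts.

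**Figure D1:**
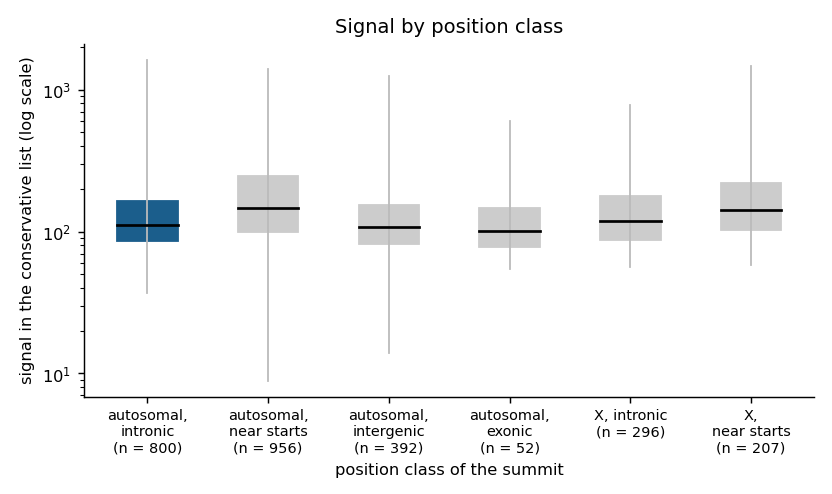
Signal per peak in the conservative list, on a log scale, for each position class. Boxes span the quartiles, black lines are medians and grey lines reach the lowest and highest peak; the median of the autosomal intronic peaks, 111, lies below the 146.5 of the autosomal peaks near starts.

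The replicates held the intronic peaks unevenly. In the thresholded list of replicate 1, 537 of the 800 intronic peaks were overlapped by at least 1 bp (67.1%, Wilson 63.8 to 70.3%), against 79.4% of the peaks near starts (76.7 to 81.8%), and 72.3% of all 2768 peaks of the list that overlapped no stronger one. The difference between intronic peaks and peaks near starts was −12.3 percentage points (Newcombe 95% interval −16.4 to −8.12). In the thresholded list of replicate 2, 446 were overlapped (55.8%, 52.3 to 59.2%), against 69.9% of the peaks near starts (66.9 to 72.7%) and 61.5% of all peaks. That difference was −14.1 percentage points (−18.6 to −9.60). Both lists held 384 of the intronic peaks (48.0%), replicate 1 alone 153, replicate 2 alone 62, and neither 201 (25.1%). Signal moved with this: in the strongest 200 intronic peaks 99% were in each list, and in the weakest 200 the shares were 16.0% in replicate 1 and 6.0% in replicate 2. The part of signal in the difference from the peaks near starts was not tested.

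In the longer ranked lists, 757 of the 800 intronic peaks were matched in both replicates by a summit no more than 100 bp away. Over these the signals ran together, with a Spearman correlation of 0.77 and Pearson's r of the log2 signals 0.87, given as a description over peaks of the same 2 libraries. The median signal was 60.6 in replicate 1 and 54.8 in replicate 2. The lowest values were 30.2 and 31.1 and the highest 846 and 776. The conservative list was made from both replicates with a threshold on reproducibility, so the choice of peaks favours agreement between them.

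**Figure D2:**
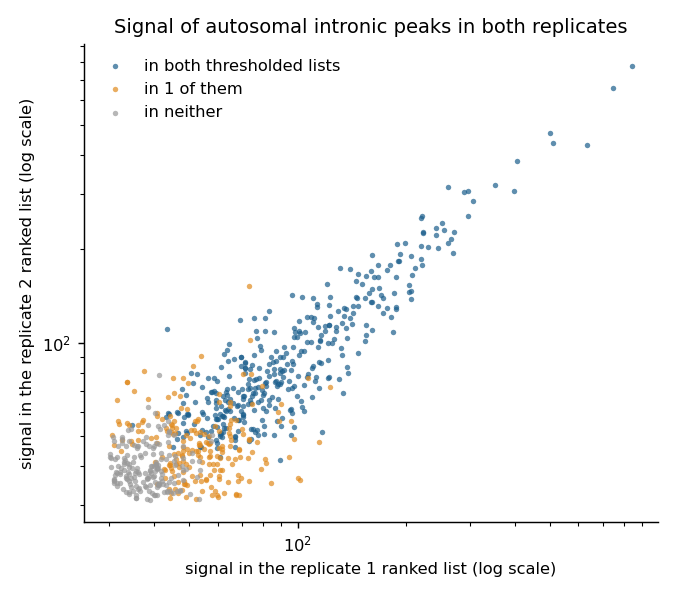
Signal of each autosomal intronic peak in the ranked list of replicate 1 (x axis) and replicate 2 (y axis), both on log scales, for the 757 peaks matched in both lists. Blue points were in both thresholded lists, orange in 1 and grey in neither; grey points gather at the lowest signals.

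The intronic peaks were densest in first introns. To account for how much sequence could hold such a peak, counts were divided by eligible sequence, the 42.6 Mb of autosomal bases inside a gene body, in no exon and over 500 bp from every start. Over all of it there were 18.8 peaks per Mb (exact 95% Poisson interval 17.5 to 20.1). First introns held 434 peaks, or 54.3% (Wilson 50.8 to 57.7%), with 31.7% of the eligible sequence. Their density was 32.1 per Mb (29.2 to 35.3), against 20.5 per Mb in second introns (17.9 to 23.4) and 7.98 per Mb in later introns (6.74 to 9.37). The 3 intervals did not overlap. Second introns held 219 peaks and later introns 147. The X intronic peaks ran in the same order, with 42.7, 26.9 and 17.4 per Mb in first, second and later introns.

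Distance from a start moved with intron number. The density of intronic peaks was 43.7 per Mb at 500 to 1000 bp from the nearest start (37.1 to 51.2), 29.7 at 1 to 2 kb (25.4 to 34.5), 20.8 at 2 to 5 kb (18.1 to 23.8), 17.5 at 5 to 10 kb (14.8 to 20.4) and 7.38 beyond 10 kb (6.03 to 8.94). Within each of these distance classes first introns had the highest density and later introns the lowest. At 500 to 1000 bp the densities were 53.6 per Mb in first introns (43.8 to 64.8), 39.8 in second introns (27.4 to 55.9) and 23.2 in later introns (13.7 to 36.6). Beyond 10 kb they were 15.5 (10.7 to 21.7), 12.2 (8.67 to 16.8) and 3.72 (2.56 to 5.23). The intervals of first and second introns overlapped in each class, while those of first and later introns did not overlap in any.

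**Figure D3:**
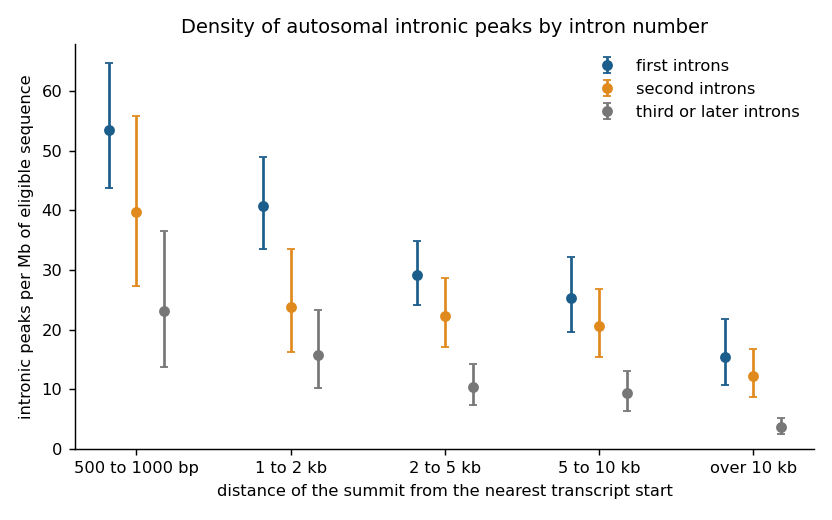
Autosomal intronic peaks per Mb of eligible sequence (y axis) by distance of the summit from the nearest transcript start (x axis), for first, second and later introns. Points are densities and bars exact 95% Poisson intervals; density falls from 53.6 to 15.5 per Mb in first introns and from 23.2 to 3.72 per Mb in later introns.

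By length, density was lowest in introns of up to 1 kb, which held 21 peaks at 5.92 per Mb of eligible sequence (3.66 to 9.05). That value depended on the start limit, with 10.3 per Mb at a limit of 200 bp and 2.23 per Mb at 1000 bp. Introns of 1 to 5 kb held 189 at 26.2 per Mb (22.6 to 30.2), those of 5 to 20 kb 345 at 23.1 per Mb (20.7 to 25.7), and those over 20 kb 245 at 14.5 per Mb (12.7 to 16.4). In first introns alone the density was highest at 1 to 5 kb, with 47.4 per Mb (39.4 to 56.6). First introns of up to 1 kb had 25.7 per Mb on 12 peaks (13.3 to 44.9), and those over 20 kb 25.2 per Mb (20.7 to 30.4). The median intron around a peak was 11403.5 bp long (quartiles 4650 and 23403), against a median of 77 bp over the 31237 introns with eligible sequence and 13984 bp around the median eligible base. The longest introns with a peak were in Ptp61F, a tyrosine phosphatase gene, with 2 peaks in 126467 bp, in jing, a zinc finger gene, with 2 peaks in 110416 bp, and in luna, with 108407 bp. After CG11050, the shortest were in lncRNA:CR43337 (169 bp), CG5854 (219 bp), CG43245 (235 bp) and jbug (281 bp), which encodes a filamin.

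Summits leaned towards the 5′ part of their introns. With each intron divided into 3 equal parts, the 5′ part held 39.5% of them (36.2 to 42.9%), the middle part 35.0% (31.8 to 38.4%) and the 3′ part 25.5% (22.6 to 28.6%), where eligible sequence was spread as 33.9, 33.4 and 32.7%. In introns over 10 kb the shares were 40.5, 32.9 and 26.6%. The median summit lay 2879.5 bp from the nearest start and 1350.5 bp from the nearest exon, and 14 summits lay within 50 bp of an exon. The nearest protein-coding start was the host's own for 639 peaks and that of another gene for 161 (20.1%). The peaks nearest to the limit of 500 bp were those of Pdp1, CG31612, vri, stet and pAbp inside it, at 505 to 510 bp from a start, and those of CG5171, Samuel, lncRNA:CR42736, CG18135 and Sec13 outside it, at 494 to 498 bp. Their signals were 133, 397, 85.4, 86.4 and 95.8 inside and 136, 139, 97.4, 83.4 and 159 outside.

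By arm, the density was 18.8 per Mb on 2L (161 peaks), 19.9 on 2R (184), 21.0 on 3L (218) and 17.1 on 3R (237), with intervals that overlapped throughout. The X had 29.0 intronic peaks per Mb (25.8 to 32.5). Chromosome 4 held 0 intronic peaks in 0.575 Mb of eligible sequence, which allows up to 5.22 per Mb by the limit of 3 counts and 6.42 per Mb by the exact Poisson interval.

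The 800 intronic peaks lay in 525 host genes, of which 518 were protein-coding. These were 6.94% of the 7459 autosomal protein-coding genes with any eligible sequence, and 305 of the 953 genes with at least 10 kb of it (32.0%). A single peak was held by 355 hosts, 2 by 109 and 3 by 35, and 26 hosts held 4 or more, 122 peaks in all. Introns with at least 2 peaks numbered 141 and held 41.5% of the peaks, at a median gap of 3892 bp between neighbours (492 to 74777 bp). A peak near a start of their own was found in 116 of the 518 protein-coding hosts (22.4%, 19.0 to 26.2%), against 830 of the 6941 other genes with eligible sequence (11.96%, 11.2 to 12.7%). The difference was 10.4 percentage points (Newcombe 6.97 to 14.3). Among genes with at least 10 kb of eligible sequence it was 22.3% against 11.3%, a difference of 11.0 percentage points (5.96 to 16.5). The gene wor itself has no eligible sequence and held 0 intronic peaks.

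Of the 26 hosts with 4 or more peaks, regulators of transcription are described before the others. The host with the most was sbb, which encodes the corepressor Scribbler, also called Brakeless. Its 9 peaks had signals of 489, 394, 181.7, 156.3, 123.5, 121.4, 115.3, 87.7 and 79.5, and 7 of them shared an intron of 49364 bp. The peaks of sbb ran from near the top of the list to below its median, and 6 of the 9 were in both replicates' thresholded lists. The gene shn, for the zinc finger protein Schnurri of the BMP pathway, held 7 peaks, with signals of 362.4, 323.2, 128.6, 128.3, 112.1, 80.7 and 70.7, 5 of them in both lists. The nuclear receptor gene ftz-f1 held 6, at 173.8, 154.7, 126.3, 124.3, 106.5 and 85.1, and 5 shared an intron of 33674 bp. CG32264, placed here by its number of peaks and not as a regulator of transcription, held 6, at 370.6, 126.0, 120.9, 101.9, 90.9 and 66.8.

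Among further transcriptional regulators, Snoo, the fly relative of the SMAD corepressor Ski, held 5 peaks in an intron of 78434 bp, with signals of 247.4 to 81.5. The homeodomain Hox cofactor gene hth held 5 peaks in 5 different introns, with signals of 230.7 to 78.9. The GATA cofactor gene ush held 5 (179.9 to 99.3) and the Krüppel-like factor gene luna 5 (155.7 to 73.8). The gene simj, for a subunit of the NuRD complex, held 4 strong peaks in 1 intron, at 485.1, 315.8, 279.7 and 136.1, all in both lists. The histone H3 methyltransferase gene gpp held 4 (268.3 to 90.2), the chromatin protein gene tou 4 (212.8 to 86.1) and the transcription factor gene apt 4 (163.0 to 70.3). Peak number per eligible sequence was 22.5 per 100 kb in shn (9.06 to 46.4), 19.2 in simj (5.22 to 49.1), 16.6 in sbb (7.61 to 31.6) and 3.98 in luna (1.29 to 9.28).

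The other hosts with a known role encode signalling, adhesion, cytoskeletal or RNA-binding proteins for the most part. Receptors and ligands were fz, the Wingless and planar polarity receptor (4 peaks, 229.6 to 78.0), the netrin receptor gene fra (4, 113.8 to 86.1), the adhesion protein gene ed (4, 162.2 to 123.6) and the PDGF- and VEGF-related ligand gene Pvf3 (4, 175.9 to 112.7). Intracellular signalling genes were msn, a Ste20-type kinase (4, 229.1 to 118.6), RapGAP1, an activator of Rap1 GTP hydrolysis (5, 126.4 to 81.6), and Spn, a phosphatase-binding scaffold (4, 94.96 to 63.7). The RNA-binding protein gene shep held 5 (204.6 to 73.4). The remaining hosts with 4 peaks were sick, SKIP, Kank, mtgo, wake and lncRNA:CR46006, whose strongest peaks had signals of 402.4, 257.6, 243.8, 205.8, 184.8 and 185.5. Spn was the host of this group with 0 peaks in both replicates' thresholded lists. With the list of replicate 1 alone 16 hosts held 4 or more intronic peaks, and with that of replicate 2 alone 9.

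**Figure D4:**
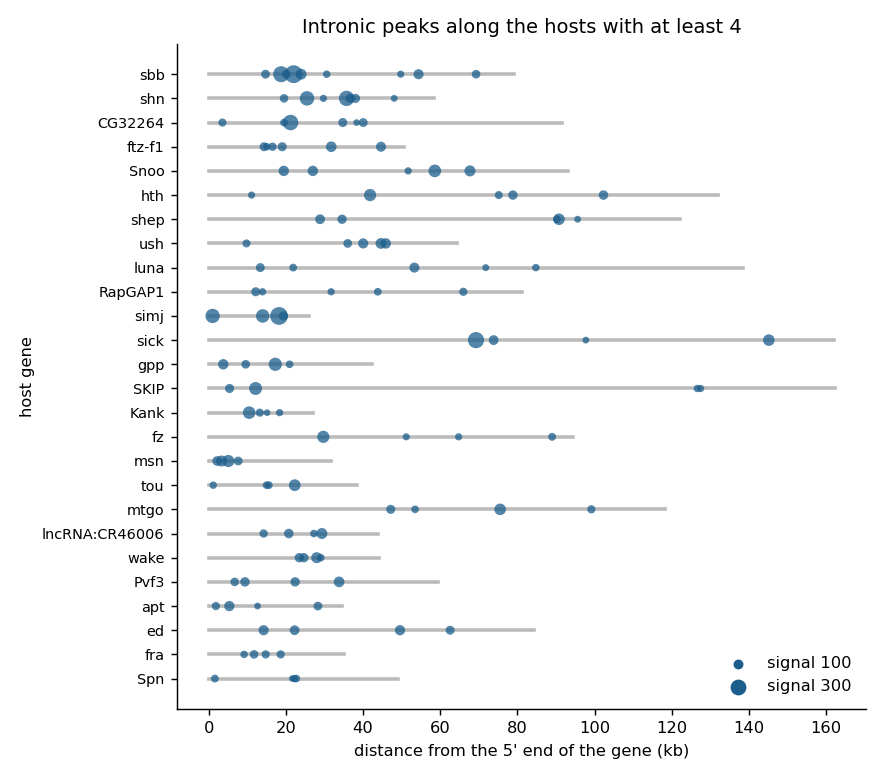
Positions of the intronic peaks along the 26 host genes with at least 4 of them, as distance from the 5′ end of the gene in kb. Grey lines are gene bodies and point area is proportional to signal; the 9 peaks of sbb and the 7 of shn include clustered strong ones, while the 5 of hth are spread over the gene.

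Genes of developmental pathways were described by counts of hosts among the genes of each list with eligible sequence, beside 6.94% over all such genes and, for the density, 18.8 per Mb over all eligible sequence. Several genes stand in more than 1 list, and the genes of a list differ in eligible sequence. The Poisson intervals treat peaks of the same gene as independent. Of all protein-coding genes with at least 10 kb of eligible sequence, 32.0% were hosts. In the BMP pathway 7 of 12 genes were hosts, with 15 peaks at 76.1 per Mb (42.6 to 126). Of the 15 peaks, shn alone held 7 (strongest 362). The other hosts were the ligand dpp (1 peak, signal 228), the receptor wit (2, strongest 284) and the heparan sulphate proteoglycan dally (1, 122). They also included the transducer Mad (1, 475.9), the inhibitory SMAD Dad (2, strongest 274) and bs (1, 118), a MADS-box factor. The Mad peak lay in the first intron, 630 bp from a start, with replicate signals of 242 and 222.

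In the EGFR, Ras and Raf list 7 of 14 genes were hosts, with 13 peaks at 59.0 per Mb (31.4 to 100.8). The receptor Egfr held 2 weak peaks, the strongest at 85.4, with replicate signals of 44.4 and 40.2. S, for the ligand chaperone Star, held 3 (strongest 318), the secreted inhibitor gene aos 1 (450), the adaptor gene drk 1 (227) and the feedback inhibitor gene sty 1 (165). The ETS factor genes aop and pnt held 2 and 3, the strongest at 240.5 and 136. The peaks of this pathway were strongest in the inhibitor aos and weakest in the receptor.

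In the Wingless and Hedgehog list 6 of 14 genes were hosts, with 13 peaks at 43.9 per Mb (23.4 to 75.1). Beside fz these were the ligand wg (1, 115.2), the receptor genes fz2 (2, strongest 76.6), arr (2, 147) and ptc (1, 158), and the inhibitor gene nkd (3, 154). Notch pathway genes were hosts in 2 of 15 cases, at 17.5 per Mb (4.78 to 44.9). The coactivator gene mam held 3 peaks, the strongest at 432 with 220.2 and 204 in the replicates, and the ubiquitin ligase gene neur 1 at 240.3.

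Neuroblast factors had 3 hosts among 8 genes, at 29.2 per Mb (10.7 to 63.6). They were the growth inhibitor gene brat, with a peak of signal 475 in its first intron and 221 and 254 in the replicates, grh (256, with 154 and 101.4) and pnt. Of the temporal series, 1 of 8 genes was a host, again grh, at 8.33 per Mb (0.211 to 46.4). In the asymmetric division list 5 of 11 were hosts, at 46.7 per Mb (20.2 to 92.1), with the strongest peak in the junction protein gene cno (211). The others were the G protein regulator loco (113), the G protein subunit Galphai (106), the polarity scaffold scrib (104) and the polarity kinase aPKC (77.5). The aPKC peak had a summit match in replicate 1 only. Neural RNA-binding proteins had 9 hosts among 16 genes but 16.2 peaks per Mb (9.73 to 25.2), an interval that includes the overall density. Their strongest peaks were those of mub, brat and shep, and the others were Rbfox1, pum, ps, bru2, Rbp9 and pAbp.

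Axon guidance and neural adhesion genes had 5 hosts among 27, with 9 peaks in 1066 kb of eligible sequence. Their density was 8.44 per Mb (3.86 to 16.0). The hosts were fra, the semaphorin gene Sema1a (strongest peak 235), the adhesion protein gene Fas3 (209), the midline repellent gene sli (135) and the netrin receptor gene unc-5 (80.4). Of the nuclear receptor and ecdysone list, 5 of 18 were hosts, at 32.7 per Mb (17.4 to 55.9). By the strongest peak given to each they were led by the ETS factor gene Eip74EF (340.4, with 166 and 177 in the replicates). Then came ftz-f1, Hr3, EcR and Eip75B. The order and the density rest on the rule of 1 host per peak. The peak of signal 945 within Hr3 was given to CG46321 and is not counted here. Hox genes and cofactors had 4 hosts among 9, at 30.2 per Mb (15.1 to 54.1), with hth ahead of Antp (112.5), Abd-B (96.9) and Ubx (67.4).

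In the remaining lists, mesoderm and muscle genes had 5 hosts among 16 (strongest Msp300 at 316), trachea 3 of 9 (rib at 264), glia 2 of 11 (pnt at 136), Polycomb group and chromatin 4 of 17 (Trl) and cAMP and PKA 4 of 11 (Pka-C3 at 161). In the same order their densities were 23.1 per Mb (8.47 to 50.2), 28.9 (7.88 to 74.1), 62.1 (20.2 to 145), 41.7 (16.8 to 85.9) and 14.9 (4.06 to 38.2). All of these intervals included the overall 18.8 per Mb except that of glia, with 5 peaks in 2 genes. Ribosomal protein genes had 0 hosts among the 6 with eligible sequence, which amounted to 1.364 kb in all, so no density can be read from them.

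The summits of the intronic peaks were rich in A and T. The median G+C content within 50 bp of the summit was 29.7% (interval 28.7 to 29.7%), against 41.6% in an equal window placed 500 bp away at the higher coordinate and 42.6% at the lower coordinate. The summit window was lower than both in 591 of the 800 intronic peaks (73.9%, Wilson 70.7 to 76.8%) and higher than both in 61. Mean G+C content was 30.7% at the centre, 45.2% at 150 to 300 bp and 40.2% at 800 to 1000 bp, with 39.7% over all eligible sequence. Both a dip at the centre and a rise beside it were thus seen against the sequence at 800 to 1000 bp and against all eligible sequence. The sequence around the summits was taken whatever its annotation, and was not intronic throughout. The peaks near starts had a like dip, to a median of 28.7% at the summit, with 46.5% in the flank, and stayed at 44.7% at 800 to 1000 bp.

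Weaker autosomal intronic peaks of the ranked lists, away from starts and outside the conservative list, did not have the dip. Their median signals were 17.1 in replicate 1 and 19.4 in replicate 2. In the same ranked lists, the 757 intronic peaks matched in both had medians of 60.6 and 54.8. In replicate 1 their summit median was 44.6% over 14622 peaks, against 41.6% in the flank, and in replicate 2 it was 43.6% over 10515 peaks, against 40.6%. The summit was lower than both flanks in 25.8% and 27.0% of them. The thresholded intronic peaks of each replicate taken alone, 584 and 466 in number, both had a median of 29.7%. Within the 800 intronic peaks the median G+C content at the summit was 28.7% in the strongest 200 and 31.7% in the weakest 200.

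**Figure D5:**
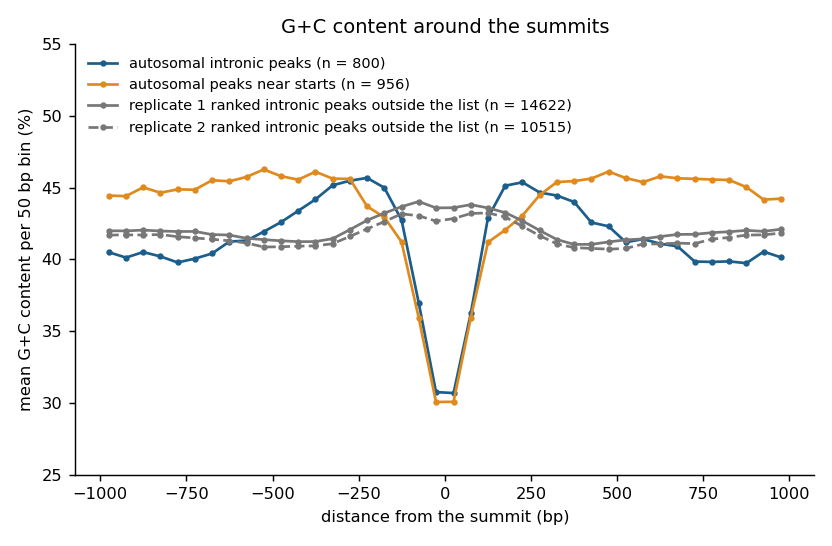
Mean G+C content in 50 bp bins (y axis) by distance from the summit (x axis, to 1000 bp either side) for the autosomal intronic peaks, the autosomal peaks near starts and the ranked intronic peaks of each replicate outside the conservative list. The y axis starts at 25%; both sets of the conservative list fall to about 30.7% and 30.1% at the centre, and the ranked peaks outside it do not.

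The Snail-type hexamer CAGGTG was not more frequent at the summits than beside them. It was present within 50 bp of the summit in 16 of the 800 intronic peaks (2.00%, Wilson 1.23 to 3.22%), against 23 flank windows (2.88%, 1.92 to 4.28%). The exact two-sided sign test over peaks with the motif in a single window, with Benjamini-Hochberg adjustment over 11 motifs, gave adjusted p = 0.594. Over all 2768 peaks of the list CAGGTG was less frequent at the summit, with 2.02% against 4.34% in the flank (exact sign test, adjusted p = 2.05e-06). The control GTGGAC, the same hexamer reversed, was lower there too, with 1.05% against 3.18% (exact sign test, adjusted p = 2.35e-07). Of the 11 motifs, searched on both strands, 0 were more frequent at the summit of the intronic peaks, also at an unadjusted p under 0.05. The flank windows were at the higher coordinate, and 675 of the 800 themselves lay in intronic sequence away from starts.

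Motifs lower at the summits of the intronic peaks numbered 3 of 11, or 27.3%, against 54.5% of the motifs over all peaks of the list. These shares rest on 800 and 2768 peaks. A larger set gives more calls for the same difference, so the shares do not compare the size of the differences. In the intronic peaks the Ase/Ac-type E-box CAGCTG, bound by proneural proteins, was in 16 summit and 49 flank windows (exact sign test, adjusted p = 0.00015). The GAGA motif GAGAGAG, bound by the product of Trl, was in 3 and 26 (exact sign test, adjusted p = 0.00015). The Su(H)-type motif GTGGGAA of the Notch pathway was in 1 and 16 (exact sign test, adjusted p = 0.00101). With the list of replicate 1 alone the calls of CAGCTG and GTGGGAA were lost (exact sign test, adjusted p = 0.338 each), and with that of replicate 2 alone likewise (adjusted p = 0.0736 and 0.344), while GAGAGAG stayed past the threshold. The control GTGGAC, a reversed Snail-type hexamer, was in 7 and 20 windows (exact sign test, adjusted p = 0.0527). The Twist-type E-box CATATG was in 30 and 21 windows, the Myc-type CACGTG in 5 and 8 and the Zelda-type CAGGTAG in 3 and 1. The DRE TATCGATA and the M1BP-type GGTCACACT were each in 1 and 0, and the Grh-type AACCGGTT in 0 and 1. G+C content differed between the same windows, with medians of 29.7% at the summit and 41.6% in the flank, and its part in these differences was not tested.

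All sequences of 6 letters were compared in the same way. Of all hexamers, a hexamer and its complement counted as 1, 245 were more frequent at the summits of the intronic peaks than in their flanks (11.8%) and 452 less frequent (21.7%), by exact sign tests with adjustment over all hexamers. With a window of 25 bp either side the counts were 142 and 185, and with the list of replicate 2 alone 257 hexamers were less frequent. Over all peaks of the list 20.4% were more and 48.9% less frequent. Those shares rest on 2768 peaks, and a larger set gives more calls for the same difference. The leading hexamer, TTAAAA, was in 308 summit windows (38.5%) and 114 flank windows (14.3%) of the 800 intronic peaks (exact sign test, adjusted p = 1.11e-24). Its matches numbered 379 and 393 in the 100 bp on either side of the summits, against 98 to 219 per 100 bp farther out, to 1000 bp. It was in 45.4% of the summit and 9.94% of the flank windows of the peaks near starts. Over all peaks of the list TTAAAA was in 39.2% of the summit and 12.7% of the flank windows. The others named by smallest p were ATATTA (191 against 56), ATATAA (203 against 75), TAAATA (260 against 126), AATAAT (27.4% against 12.6%), AAAAAT (326 against 192), TCTTAA (125 against 45) and AATAGT (96 against 30), all higher at the summit. CTCCTC was lower, in 3 against 44 windows, as was CTCTCC, in 2 against 40.

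Calls moved with base composition. All 36 hexamers with no G or C were more frequent at the summit, as were 149 of the 192 with a single G or C. Of the 36 made only of G and C, 24 were less frequent and 0 more. The longest run of A and T in the summit window had a median of 10 bases, against 8 in the flank window. In sets of 200 intronic peaks, taken from the weakest to the strongest by signal, TTAAAA was in 30.5, 44, 42.5 and 37% of the summit windows, with no steady order.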

How the data were processed

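ChIP-seq peaks from 2 replicates of wor-GFP embryos were analysed. The authors deposited peak lists on dm6, thresholded and ranked by the irreproducible discovery rate, per replicate and from both; the aligner and peak caller were not given in the sources used here. Per peak, the signal and the summit offset in bp of each peak are the authors' deposited values; the deposited score of each peak was not used for any result. Lists of both replicates and of each replicate were used, 6 files in all.

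Genes were those of Ensembl release 115 (annotation 54) without transposable elements, and bases those of RefSeq Release 6, whose arm lengths fit the lists. A summit inside several genes went to protein-coding genes first, then to the shortest intron. Intron numbers come from the longest spliced transcript with the summit in an intron and count from the 5′ end. Densities have exact Poisson intervals, shares Wilson intervals, differences Newcombe intervals and medians order-statistic intervals, all at 95%. Motifs were tested by exact two-sided sign tests with Benjamini-Hochberg adjustment and a threshold of 0.05. The test was tried on simulated windows with planted hexamers. Summit and flank had the same base composition there, unlike in the real windows, so calls under unequal composition were not covered. Python 3.11.15, pandas 2.3.3, numpy 2.4.6 and scipy 1.17.1 were used.

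The peaks, the 18 gene lists and the tests were chosen with earlier results of these data known. All list symbols matched a gene, 25 of the nuclear receptor list matching 23 genes because of synonyms, and the result of 1 list is not reported here. Named genes were the hosts of the 15 strongest and 5 weakest peaks, hosts with 4 or more peaks, the 5 longest and 5 shortest introns, the 5 peaks on either side of the start limit, hosts in the gene lists and the 10 hexamers of smallest p, leaving out those that share a run of 5 bases, on either strand, with one already named. Alternatives were other start limits, overlap rules, lists, transcripts, windows and leaving out either replicate.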

Additional observations from a re-analysis of the deposited data

How the results depend on the processing

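Of the summary results, 91 settings kept the value within its limit and 20 did not. Reversal was not scored for them. Reversal was scored only for single motifs and TTAAAA, where no called difference changed sign. Uncalled differences could change sign: Snail-type summit minus flank was −0.875 percentage points, and 0.171 without replicate 2. The cause of values outside their limit was not tested, except where fewer peaks or shorter windows enter by construction. With the lists of the single replicates in place of the conservative list, the number of intronic peaks was 466 to 584, hosts with 4 or more peaks 9 to 16, hexamers lower at the summit 257 to 317 and motifs lower 1 to 2. With peaks above the median signal of the list alone there were 375 intronic peaks and 8 such hosts. The median host intron was 13277 bp with a start limit of 1000 bp, 10171.5 bp with the transcript of the shortest intron and 12699 bp with that of the longest. With overlapping peaks kept, the median signal was 105.0 and the median G+C content at the summit 30.7%. A start limit of 200 bp gave 10.3 peaks per Mb in introns of up to 1 kb and 26.0 in those of 5 to 20 kb; a limit of 1000 bp gave 28.5 in first introns, 2.23 in introns of up to 1 kb and 19.6 in those of 1 to 5 kb. The ratio of the densities of first and later introns was 4.03, and 3.79 to 5.03 over 6 alternatives added after seeing the data. The Spearman correlation of the replicates was 0.80 with summits within 50 bp. A window of 25 bp either side left 142 hexamers higher and 185 lower, and the Su(H)-type motif was not called there (exact sign test, adjusted p = 0.143); the control GTGGAC was lower with a window of 100 bp (adjusted p = 0.0238), an upstream flank (0.00915) and replicate 2 alone (0.0406). No paired analysis was possible because the 2 replicates form a single group. The unknown depth limits how firmly a peak missing from a list can be read.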
